A study of Mus musculus with 24 samples.

Results

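The genes examined were 10 that mark microglia, the resident macrophages of the brain, namely C1qa, C1qb, C1qc, Csf1r, Cx3cr1, P2ry12, Tmem119, Aif1, Itgam and Trem2. Every ATAC-seq peak that the deposited table names for one of them was taken, which gave 23 of 147020 peaks, at 8 of the 10 genes. ATAC-seq uses the Tn5 transposase to cut and tag DNA that is open rather than packed in nucleosomes, and the count in a peak measures how accessible that stretch is. The nuclei came from the striatum of C57BL/6 mice aged 12 months and were sorted on NeuN, which marks the nuclei of most neurons but not of glia, so microglia were meant to be left out of every library. Q140 animals carried a heterozygous knock-in of Htt with an expanded CAG repeat, a model of Huntington's disease (labelled Het (Q140) KI). Q140_Msh3KO animals carried the same knock-in and lacked the mismatch repair gene Msh3, Msh3KO animals (Msh3-/-) lacked Msh3 only, and WT animals were wild type at both genes. Each of the 4 genotypes had 6 animals, 3 female and 3 male, with 1 library per animal. No group lacked microglia or held sorted microglia, so the values below describe what NeuN-sorted nuclei show at these genes.

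Microglia survey the brain, engulf debris and synapses, and depend on signalling through the receptor Csf1r for survival. Neurons address them through surface ligands such as fractalkine, which binds Cx3cr1, and through released nucleotides, which P2ry12 senses. The C1q subunits, made largely by microglia in the brain, start the classical complement cascade. In microglia the promoters of many of these genes are bound by PU.1, an ETS transcription factor that recognises a core motif GAGGAA, the PU box. Neurons express these genes little or not at all.

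The promoters of 4 members are shown so that the stretches can be set beside the peaks found near them. Of the members whose promoter is in the table of RefSeq promoters used here, C1qc had the peak closest to its start, Itgam and Trem2 had no peak at all, and Cx3cr1 is printed as a promoter with no copy of the motif. Each stretch runs from 250 bases before to 50 bases after the annotated start, 300 bases in all, 5′ to 3′ on the strand of the gene, from RefSeq on GRCm38.p6, and capitals mark GAGGAA on either strand (read as TTCCTC on the other). The C1qc stretch is chr4:136892865-136893164 on the minus strand, that of Itgam chr7:128062390-128062689 on the plus strand, that of Trem2 chr17:48346151-48346450 on the plus strand and that of Cx3cr1 chr9:120068247-120068546 on the minus strand.
C1qc: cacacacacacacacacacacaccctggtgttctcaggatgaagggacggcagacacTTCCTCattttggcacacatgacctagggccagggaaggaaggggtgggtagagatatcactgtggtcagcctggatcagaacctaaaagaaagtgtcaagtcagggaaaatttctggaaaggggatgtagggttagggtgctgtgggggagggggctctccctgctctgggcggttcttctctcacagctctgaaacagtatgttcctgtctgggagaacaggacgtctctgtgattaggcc
Itgam: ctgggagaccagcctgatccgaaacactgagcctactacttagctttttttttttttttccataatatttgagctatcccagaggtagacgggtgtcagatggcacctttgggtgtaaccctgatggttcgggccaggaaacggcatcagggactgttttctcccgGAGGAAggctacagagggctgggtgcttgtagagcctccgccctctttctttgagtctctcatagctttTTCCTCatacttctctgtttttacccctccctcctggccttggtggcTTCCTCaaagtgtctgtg
Trem2: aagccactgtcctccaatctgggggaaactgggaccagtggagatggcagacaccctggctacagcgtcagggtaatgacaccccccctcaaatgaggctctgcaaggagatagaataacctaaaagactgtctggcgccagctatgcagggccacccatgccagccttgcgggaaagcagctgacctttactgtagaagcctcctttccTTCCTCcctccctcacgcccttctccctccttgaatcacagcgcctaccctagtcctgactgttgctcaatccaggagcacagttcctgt
Cx3cr1: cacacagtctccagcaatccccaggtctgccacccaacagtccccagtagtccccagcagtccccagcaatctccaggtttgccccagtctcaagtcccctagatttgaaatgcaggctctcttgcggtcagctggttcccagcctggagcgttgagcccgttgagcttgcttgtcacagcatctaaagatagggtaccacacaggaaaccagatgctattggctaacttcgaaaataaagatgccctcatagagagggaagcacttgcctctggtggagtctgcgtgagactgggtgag

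The table used held promoter stretches for 7 of the 10 members, these 4 with Aif1, C1qb and P2ry12, and 0 of the 7 overlapped a peak. Among 20085 stretches of protein-coding genes, 62.1% did. Tmem119, the 1 member with a peak over its annotated start, is not among the 7, nor are C1qa and Csf1r. The gap from the stretch to the nearest peak was 0.77 kb at C1qc, 1.51 kb at Cx3cr1, 2.09 kb at Aif1, 7.48 kb at C1qb, 14.7 kb at P2ry12, 18.9 kb at Trem2 and 52.2 kb at Itgam. The members' promoters were poor in CpG dinucleotides, with 1 in Aif1, 3 in C1qc, 4 in P2ry12, 5 in Cx3cr1 and Trem2, and 6 in C1qb and Itgam, against a median of 14 over all stretches. Of the 6097 stretches with the members' range of 1 to 6 CpG, 16.3% overlapped a peak, and of the 13104 with more, 87.5% did. GAGGAA, searched on both strands, was present in 5 of the 7 stretches, 3 times in Itgam and once each in Aif1, C1qb, C1qc and Trem2. It was present in 27.2% of all stretches and in 32.3% of those with 1 to 6 CpG. In the other gene lists used below its share ran from 0% (housekeeping) to 66.7% (perivascular macrophage), with 57.7% in other microglial genes. The longer form GAGGAAGT, which contains GAGGAA, was present in C1qc only among the 7. It was present in 3.18% of all stretches and in 5.02% of those with 1 to 6 CpG. A match describes the letters and does not show a bound site.

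**Figure D1:**
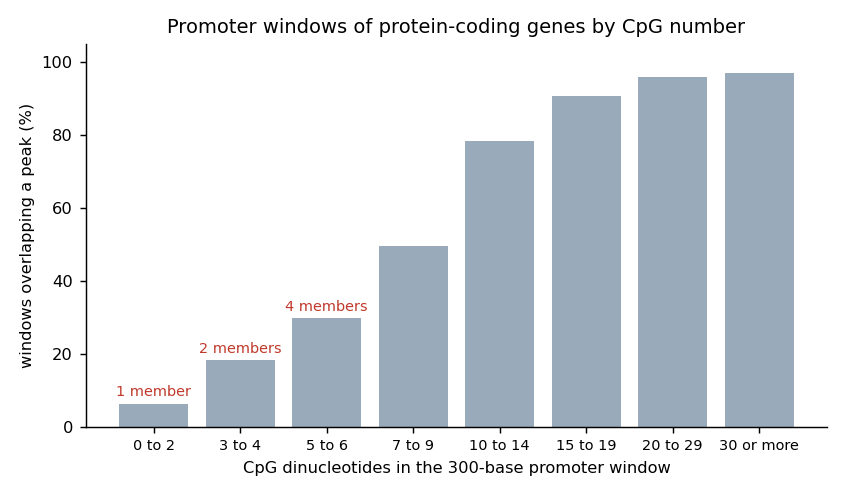
Share of 300-base promoter stretches of protein-coding genes that overlap a peak (vertical axis, percent) by the number of CpG dinucleotides in the stretch (horizontal axis). Red labels count the 7 members with a stretch, which lie in the 3 groups of fewest CpG, where 6.31%, 18.2% and 29.7% of stretches overlapped a peak.

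Library totals in peaks were 8.89 ± 1.66 M counts (M, mega) in Q140, 8.08 ± 2.16 in Q140_Msh3KO, 8.05 ± 2.10 in Msh3KO and 7.61 ± 1.61 in WT (SD, n = 6 each), and the 23 peaks together held 328 to 859 counts per library. A pair of libraries stood apart. Q140 F2, labelled female, had 1.47% of its counts on chromosome X, where the 11 other female libraries had 1.72% to 1.94% and the 12 male libraries 1.49% to 1.59%. On chromosome Y it had 4586 counts, the fewest of any library. The most, 18624, were in Q140_Msh3KO F3, also labelled female, so raw chromosome Y counts did not separate the labelled sexes. Whether the label of Q140 F2 is right was not tested. Q140_Msh3KO M1 had 12.7% of its counts in its 10 highest peaks, against 2.52% to 6.82% in the other 23 libraries. Without both, 1 member peak in place of 2 passed in Q140 against WT and 0 passed in the other genotype comparisons, and the values of the called peaks are given below with and without them. In bulk libraries such as these, fewer nuclei with an open site and a less open site in each nucleus cannot be told apart.

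The starts of microglial genes were mostly without a peak in these nuclei. Only Tmem119, a membrane protein used to tell resident microglia from other macrophages, had a peak over its annotated start, so 1 of 10 members did, against 11737 of 21900 protein-coding genes (53.6%). A peak was counted as over a start when the start lay within it by the deposited distance, a definition chosen after seeing that the deposited promoter class missed covered starts of genes such as Actb. By the promoter class alone, 1 of 10 members and 38.6% of protein-coding genes had one. Of 10 pan-neuronal genes, among them Rbfox3 (which encodes NeuN), Snap25 and Syt1, 10 had a peak over the start, as did 10 of 12 genes of striatal projection neurons and 10 of 10 housekeeping genes. Markers of other glia lay between, with 8 of 12 astrocyte genes and 7 of 12 oligodendrocyte genes. Of 28 other microglial genes 9 had one (32.1%), and of 8 genes of perivascular macrophages 1 did (12.5%). These shares were not matched for CpG. Of the promoter stretches described above, a different measure, 16.3% of those with 1 to 6 CpG overlapped a peak, against 62.1% of all. How far the CpG number of the promoters, or the share of non-neuronal nuclei in the sort, sets these counts was not tested.

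**Figure D2:**
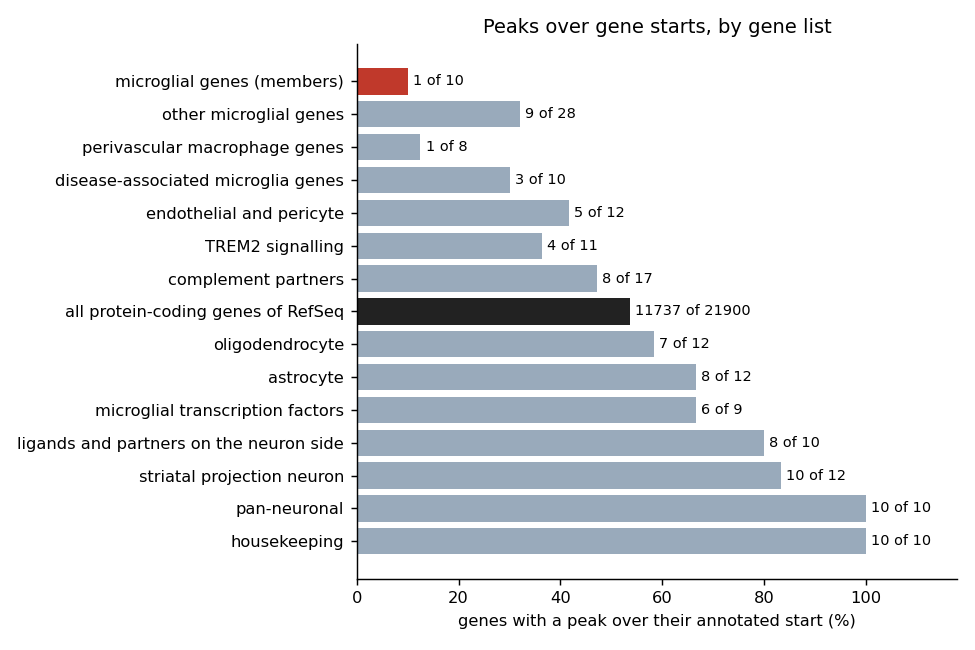
Share of genes with a peak over their annotated start (horizontal axis, percent) for the 10 microglial genes (red), the other gene lists (grey) and all protein-coding genes of RefSeq (black), with counts beside the bars. The microglial genes have the lowest share of the lists shown, at 1 of 10, and the lists are not matched for CpG number.

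The Tmem119 start peak was weak. It lies on chromosome 5, 113800104 to 113800697 (positions here and later are on GRCm38), its centre is 4 bases from the start, and it averaged 3.49 ± 1.07 CPM (counts scaled to the library size; SD, n = 24), or 5.88 CPM per kb of peak width. That put it at percentile 1.15 of the 13359 tested peaks over a start, whose median was 16.8 CPM per kb. On the same per-kb scale the start peaks of Snap25 and Rbfox3 averaged 24.5 and 20.6, the median over pan-neuronal start peaks was 24.5, and the medians were 9.0 for astrocyte and 9.03 for oligodendrocyte genes. The 9 other microglial genes with a start peak had a median of 11.6, from 4.66 at Hpgds to 29.9 at Cd68. The low value of Tmem119 thus describes 1 start peak and not microglial genes at large. Of the neuron-side partners of microglia, Cx3cl1 (fractalkine, the ligand of Cx3cr1) had a start peak of 28.7 CPM per kb, Cd47 (a signal against engulfment) of 25.4, Il34 (a ligand of Csf1r) of 11.1 and Csf1 (the other Csf1r ligand) of 8.25. The starts of Cx3cl1, Il34 and Csf1 thus carried a peak in the table in which the starts of their receptors Cx3cr1 and Csf1r carried none. The split did not hold for every pair. Of the 10 neuron-side genes 8 had a peak over the start, and Tgfb1 and Entpd1 had none. Tgfbr1, a receptor for Tgfb1 counted here with the other microglial genes, had a start peak of 11.6 CPM per kb.

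Over all 23 peaks the median level was 6.6 CPM per kb, against 8.65 over all 146155 peaks that passed the filter on low counts, and 7 of the 23 lay above that value. All 23 passed the filter. The annotation placed 14 between genes, 8 in introns and 1 at a promoter, and only 5 lay inside the gene they are named for. The median distance to the annotated start was 9.13 kb, against 28.8 kb over all tested peaks, and 13 of the 23 lay within 10 kb. Another 4 lay only inside a different protein-coding gene, 3 P2ry12 peaks in Med12l and 1 Csf1r peak in Pdgfrb, so a peak named for a microglial gene need not act on it. Mean counts per library ran from 8.92 to 64.4 per peak with a median of 20, which limits the precision of any single peak.

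**Figure D3:**
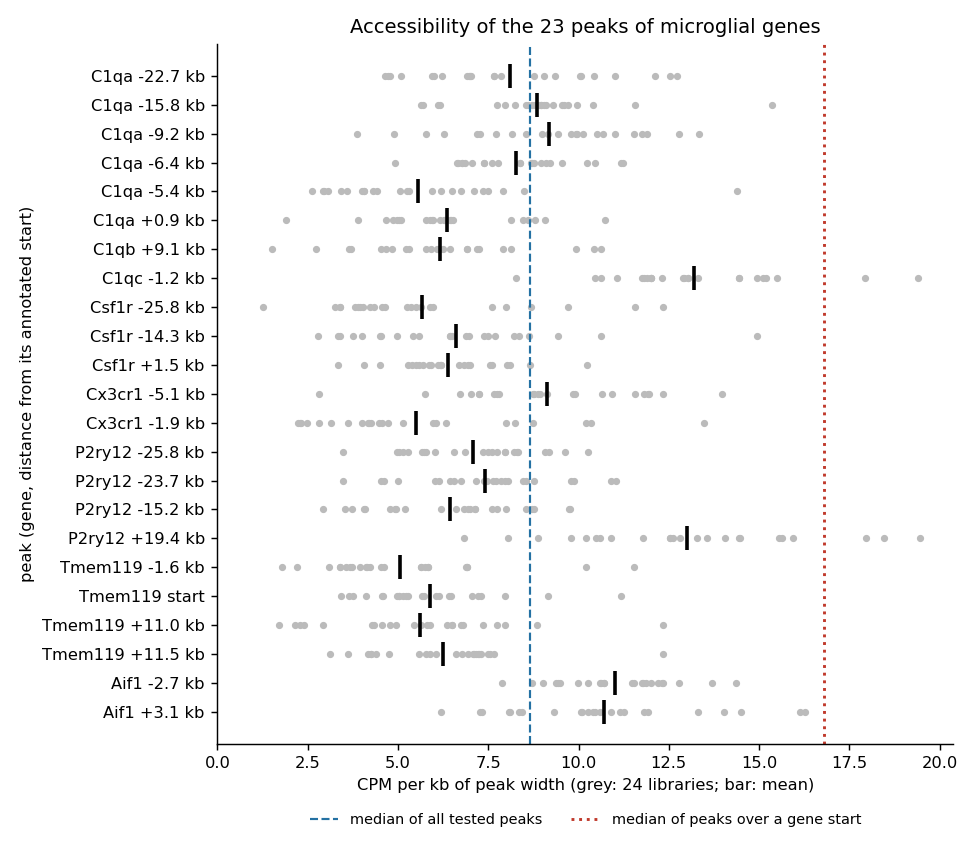
Accessibility of each of the 23 peaks in CPM per kb of peak width (horizontal axis), with grey points for the 24 libraries and black bars for their mean. The dashed line marks the median of all tested peaks (8.65) and the dotted line the median of peaks over a gene start (16.8), and no member's mean reaches the dotted line.

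Ordered by CPM per kb over all peaks of the gene (mean ± SD over 24 libraries), C1qc stood first with 13.2 ± 2.41, then Aif1 with 10.9 ± 1.37, P2ry12 with 8.83 ± 1.25 and C1qa with 7.78 ± 0.962. Below them came Cx3cr1 with 7.21 ± 2.19, Csf1r with 6.25 ± 1.34, C1qb with 6.17 ± 2.25 and Tmem119 with 5.78 ± 1.52. Neighbours in this order differed by less than the larger SD of the pair, except Aif1 over P2ry12. Itgam and Trem2 had no peak in the table under their names or inside their gene bodies. Itgam encodes the CD11b chain of complement receptor 3, spans 55.9 kb on chromosome 7 (128062640 to 128118491) and had its nearest peak 52.4 kb away. Trem2, a lipid-sensing receptor of microglia, spans 5.88 kb on chromosome 17 (48346401 to 48352276) and had its nearest peak 19.1 kb away. Peaks were called once on combined data, by the name of the deposited file, so a site open in few nuclei can fall below the threshold of the call.

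In Q140 against WT, 2 of the 23 peaks passed the test, both lower in Q140, one upstream of P2ry12 and one upstream of C1qa. That is 8.70% of the members, against 10.3% of all tested peaks called in either direction and 6.11% called lower, so the members' share was near the background. Signs were mixed, with 10 positive and 13 negative log2 fold changes, a median of -0.06 (all tested peaks -0.01) and a range of -0.88 to 0.47. At unadjusted p under 0.05 there were 5 members (21.7%), against 21.3% of all tested peaks. Summed over the 23 peaks, accessibility was 58.7, 63.8 and 76.4 CPM (lowest, median, highest) in Q140, 57.0, 67.5 and 71.2 in Q140_Msh3KO, 68.4, 70.9 and 73.1 in Msh3KO and 63.3, 71.8 and 76.7 in WT. The ranges of Q140 and WT overlapped over most of their width. Beside this, the summed peaks of the pan-neuronal list held 1530 ± 111 CPM in Q140 and 1510 ± 93.8 in WT, those of the astrocyte list 727 ± 24.5 in Q140 and 776 ± 49.4 in WT, and those of the oligodendrocyte list 633 ± 31.3 in Q140 and 674 ± 34.2 in WT (SD, n = 6 each).

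The 3 C1q genes sit side by side on chromosome 4 and encode the A, B and C chains of complement C1q. They carried 8 peaks, of which 1 passed the test in Q140 against WT. The peak 22.7 kb upstream of the C1qa start (chromosome 4, 136921343 to 136921733) held 1.85, 2.34 and 3.07 CPM (lowest, median, highest) in Q140, 1.81, 2.86 and 3.94 in Q140_Msh3KO, 1.99, 3.46 and 4.90 in Msh3KO and 2.70, 3.86 and 4.98 in WT. Q140 libraries lay low and WT libraries high, with overlap between 2.70 and 3.07 CPM. Its mean was 2.36 ± 0.476 CPM in Q140 and 3.93 ± 0.852 in WT, a log2 fold change of -0.71 ± 0.21 (SE, edgeR adjusted p = 0.0194, 95% interval -1.11 to -0.30). This peak is nearer to the annotated span of Epha8, 7.69 kb away, than to that of C1qa, 22.5 kb away, and Epha8 encodes an ephrin receptor of the nervous system. Among the 15 peaks named for Epha8, looked at after this call was seen, 0 were higher and 2 lower in Q140, with a median log2 fold change of -0.22, a count near the 10.3% of all tested peaks that were called. The C1qa call was not kept without Q140 F2 and Q140_Msh3KO M1 (-0.64, adjusted p = 0.0563), without WT F2 (adjusted p = 0.0750), without WT M1 (0.0575) or without Q140 M1 (0.0580).

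The other C1q peaks did not pass. The peak 1.2 kb upstream of C1qc (chromosome 4, 136893934 to 136894375) was the most accessible of the 23 per kb and lies between C1qc and C1qa, 0.998 kb from the span of the first and 1.54 kb from that of the second. It held 5.31, 5.38 and 6.85 CPM in Q140, 3.65, 5.24 and 6.68 in Q140_Msh3KO, 4.62, 5.82 and 8.57 in Msh3KO and 4.70, 6.18 and 7.93 in WT (lowest, median, highest). All 4 groups overlapped, and Q140 against WT gave -0.13 ± 0.15 (SE, adjusted p = 0.720, 95% interval -0.43 to 0.17). The single C1qb peak, 9.1 kb downstream of its start (chromosome 4, 136876941 to 136877202), held 0.718, 1.33 and 2.60 CPM in Q140, 0.956, 1.75 and 2.07 in Q140_Msh3KO, 1.19, 1.74 and 2.78 in Msh3KO and 0.395, 1.56 and 1.81 in WT. Its groups overlapped too, at 0.07 ± 0.31 in Q140 against WT (SE, adjusted p = 0.944). At this depth the 95% interval of -0.53 to 0.67 spans changes in both directions. The C1qa peak nearest its start lies in an intron of the gene, 0.883 kb downstream (chromosome 4, 136897779 to 136898144). It held 1.42, 2.24 and 2.36 CPM in Q140, 0.695, 2.33 and 3.93 in Q140_Msh3KO, 1.71, 2.64 and 3.32 in Msh3KO and 1.78, 2.16 and 3.22 in WT. The groups overlapped, with -0.15 ± 0.25 in Q140 against WT (SE, edgeR adjusted p = 0.831, 95% interval -0.63 to 0.34). Summed over its 6 peaks, C1qa held 13, 13.4 and 16.2 CPM in Q140 and 14.4, 15.7 and 19.2 in WT, with a log2 fold change of -0.22 ± 0.10 (SE, adjusted p = 0.169).

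P2ry12, the purine receptor that steers microglial processes towards released ADP, had 4 peaks, all inside the long gene Med12l, a Mediator subunit gene within which P2ry12 lies. The peak 15.2 kb upstream of the P2ry12 start (chromosome 3, 59277975 to 59278468) held 1.44, 1.92 and 2.44 CPM in Q140, 2.43, 3.16 and 4.22 in Q140_Msh3KO, 2.02, 4.05 and 4.83 in Msh3KO and 3.37, 3.53 and 4.30 in WT (lowest, median, highest). Each Q140 library lay below each WT library. Groups that did not overlap, in either direction, were found at 1 of the 23 peaks and at 5.07% of all tested peaks. The mean was 1.97 ± 0.382 CPM in Q140 and 3.68 ± 0.365 in WT, a log2 fold change of -0.88 ± 0.20 (SE, adjusted p = 0.00179, 95% interval -1.26 to -0.49). It was -0.85 without Q140 F2 and Q140_Msh3KO M1 (adjusted p = 0.00565). By sex, 3 animals against 3, it was -1.13 in males (edgeR adjusted p = 0.00920) and -0.64 in females (adjusted p = 0.408), and the difference between the sexes was not tested.

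None of the other 3 P2ry12 peaks passed, and the differences between peaks were not tested. The peak inside both P2ry12 and Med12l, 19.4 kb downstream of the P2ry12 start (59243319 to 59243919), held 5.89, 9.13 and 11.7 CPM in Q140 and 4.11, 6.43 and 8.45 in WT, with 6.30, 8.41 and 10.8 in Q140_Msh3KO and 6.36, 7.34 and 9.34 in Msh3KO. Its log2 fold change in Q140 against WT was 0.47 ± 0.17 (SE, adjusted p = 0.0779), the opposite sign to the upstream peak. It passed the test with scaling by total counts, in males only, and without Q140 F1, Q140 M1 or WT F1. The peaks 23.7 and 25.8 kb upstream did not pass, the second with -0.45 ± 0.20, the same sign as the called peak (SE, adjusted p = 0.161, 95% interval -0.84 to -0.06). Over the 31 peaks inside Med12l, examined after the call was seen, 2 were higher and 1 lower in Q140. The 1 lower was the called peak itself, and the count was near the 10.3% of all tested peaks that were called. Their log2 fold changes had a median of 0.05 and a range of -0.88 to 0.97. Summed over its 4 peaks, P2ry12 held 10.8, 16.2 and 19.6 CPM in Q140 and 12.8, 17.0 and 18.9 in WT, a log2 fold change of -0.03 ± 0.11 (SE, adjusted p = 0.930).

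Among the remaining receptors, Csf1r had 3 peaks and Cx3cr1 had 2, and none passed in any comparison (edgeR). The Csf1r peak nearest its start lies in an intron 1.5 kb downstream (chromosome 18, 61106772 to 61107350) and held 1.94, 3.59 and 4.37 CPM in Q140, 2.60, 3.26 and 4.64 in Q140_Msh3KO, 3.54, 4.00 and 5.01 in Msh3KO and 2.35, 3.41 and 5.92 in WT. The groups overlapped, with -0.13 ± 0.20 in Q140 against WT (SE, adjusted p = 0.794, 95% interval -0.52 to 0.25). A further 2 peaks inside the Csf1r gene body are named for the microRNA gene Mir6983 in the table and so fall outside the rule. They averaged 7.01 and 8.22 CPM per kb and did not pass in Q140 against WT (adjusted p = 0.444 and 0.955). Cx3cr1, the fractalkine receptor, had its nearest peak 1.9 kb upstream of the start (chromosome 9, 120070052 to 120070279) with 0.958, 1.24 and 3.07 CPM in Q140, 0.506, 1.01 and 1.82 in Q140_Msh3KO, 0.525, 0.869 and 1.99 in Msh3KO and 0.566, 1.04 and 2.33 in WT. The spread within Q140 was wide, and Q140 against WT gave 0.46 ± 0.37 (SE, adjusted p = 0.555, 95% interval -0.27 to 1.18).

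Tmem119 and Aif1 carried 6 peaks, and 0 passed in Q140 against WT. The Tmem119 start peak held 2.23, 3.27 and 5.43 CPM in Q140, 2.04, 3.06 and 4.73 in Q140_Msh3KO, 2.98, 3.37 and 6.64 in Msh3KO and 2.17, 3.61 and 4.34 in WT. The 4 ranges lay over one another, and Q140 against WT gave 0.04 ± 0.21 (SE, adjusted p = 0.954, 95% interval -0.38 to 0.46). The peak 1.6 kb upstream of Tmem119 was the least accessible of the 23, at 5.06 CPM per kb. Aif1, which encodes the cytoskeletal protein IBA1 commonly stained to show microglia, had a peak in an intron 3.1 kb downstream of its start (chromosome 17, 35172820 to 35173174) with 2.20, 3.09 and 4.72 CPM in Q140, 2.58, 3.85 and 4.98 in Q140_Msh3KO, 2.88, 3.66 and 5.15 in Msh3KO and 3.57, 3.92 and 5.78 in WT. Q140 values lay mostly below those of WT, with overlap, at -0.45 ± 0.18 (SE, adjusted p = 0.115). It passed only without WT M2 (-0.56, adjusted p = 0.0445). The other Aif1 peak, 2.7 kb upstream, gave -0.06 ± 0.14 (SE, adjusted p = 0.891), and the difference between them was not tested.

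**Figure D4:**
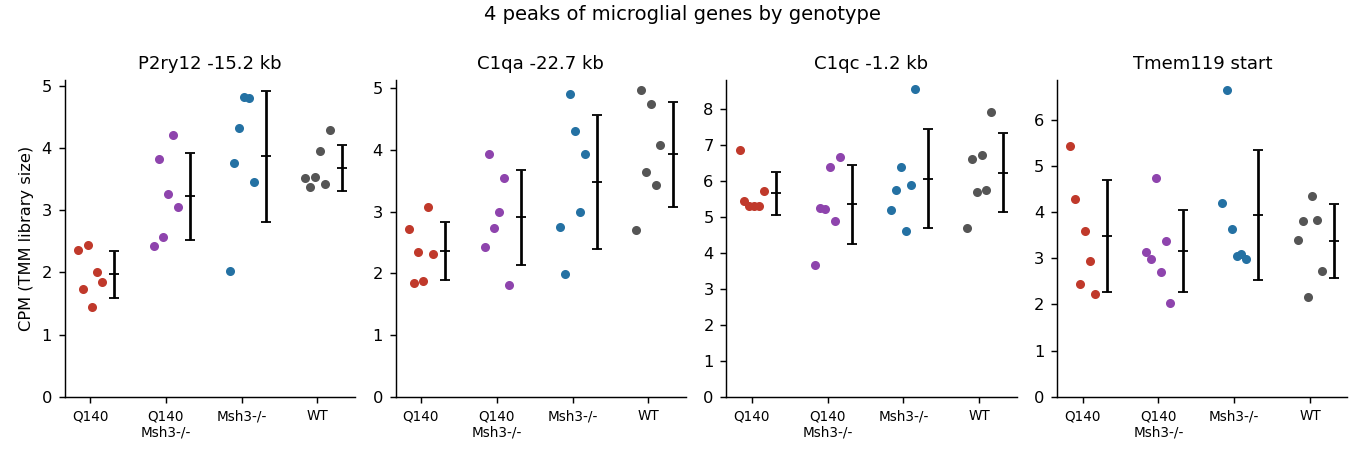
CPM of 4 member peaks (vertical axes) in the 6 libraries of each genotype, in the order Q140, Q140_Msh3KO (drawn as Q140 Msh3-/-), Msh3KO (Msh3-/-) and WT, with the mean and SD beside the points. At the peak 15.2 kb upstream of P2ry12 the Q140 points (1.44 to 2.44) lie below all WT points (3.37 to 4.30), while at the C1qc and Tmem119 peaks the groups overlap.

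Loss of Msh3 in Q140 animals gave 0 of 23 member peaks past the test with edgeR, DESeq2 or limma-voom, against 0.529% of all tested peaks by edgeR. At unadjusted p under 0.05 there was 1 member (4.35%), against 9.50% of all tested peaks. It was the peak 15.2 kb upstream of P2ry12, with a mean of 3.23 ± 0.697 CPM in Q140_Msh3KO and 1.97 ± 0.382 in Q140, a log2 fold change of 0.67 ± 0.20 (SE, adjusted p = 0.121, 95% interval 0.28 to 1.06), and 0.66 without Q140 F2 and Q140_Msh3KO M1 (adjusted p = 0.301). Q140_Msh3KO and Q140 libraries barely overlapped there, the lowest Q140_Msh3KO library at 2.43 and the highest Q140 library at 2.44 CPM. Set beside WT, the Q140_Msh3KO libraries gave -0.21 ± 0.19 (SE, adjusted p = 0.811). These comparisons share the Q140 libraries with Q140 against WT, or share the WT libraries, so they are not separate evidence. The interaction, which asks whether the Q140 effect depends on Msh3, was -0.59 ± 0.27 at this peak (SE, adjusted p = 0.625). For the peak upstream of C1qa, the mean was 2.91 ± 0.767 CPM in Q140_Msh3KO and 2.36 ± 0.476 in Q140, with 0.28 ± 0.21 (SE, adjusted p = 0.771).

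**Figure D5:**
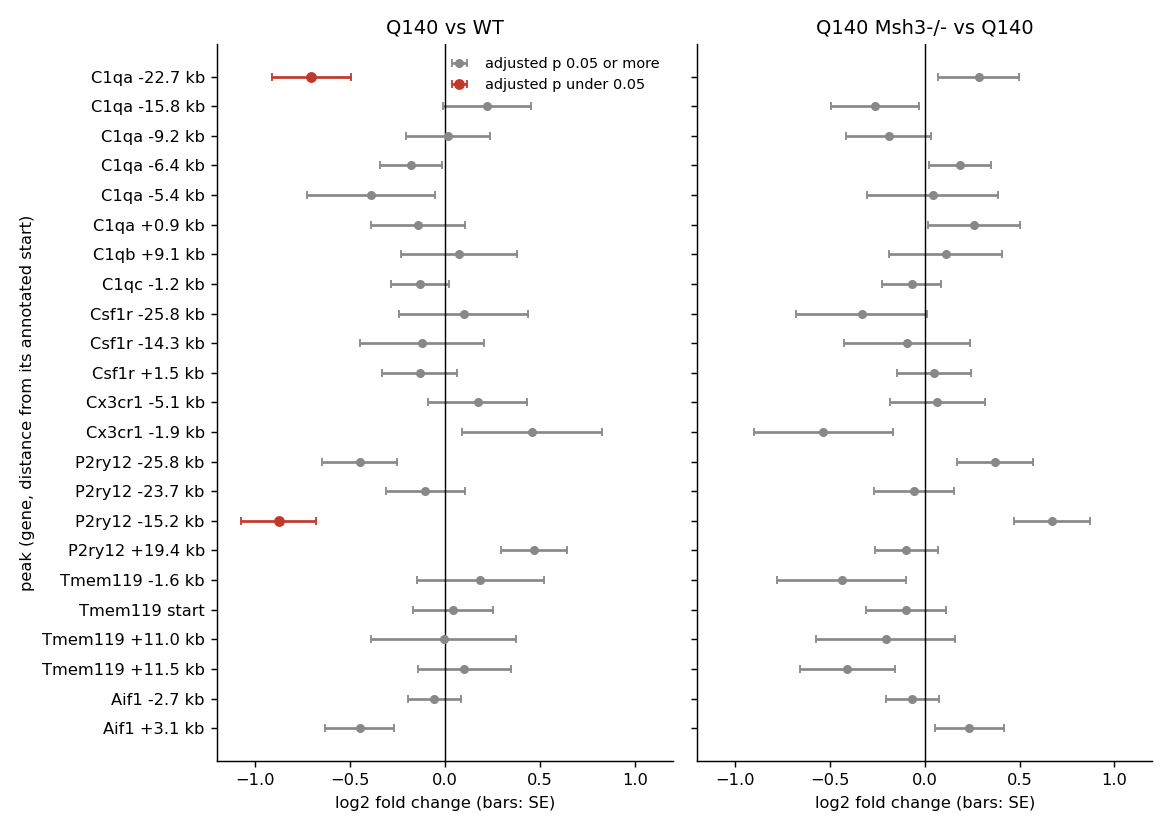
Log2 fold changes (horizontal axes) of the 23 peaks in Q140 against WT (left) and Q140_Msh3KO against Q140 (right), with bars of 1 SE. Red marks the peaks past adjusted p 0.05, which are 2 on the left, both below 0, and 0 on the right, and the panels share the Q140 libraries.

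No member passed in the other comparisons with edgeR. Msh3KO against WT called 0 of 23 (also by DESeq2 and limma-voom), against 0.0130% of all tested peaks, and the log2 fold changes ran from -0.29 to 0.46. At unadjusted p under 0.05 there were 0 members, against 3.34% of all tested peaks. Q140_Msh3KO against Msh3KO, which asks for the Q140 effect in animals without Msh3, called 0 of 23 by all 3 tools, against 0.116% of tested peaks. Its count at unadjusted p under 0.05 was 1 member (4.35%), against 7.68% of tested peaks. Q140_Msh3KO against WT called 0 of 23 by all 3 tools, against 0.525%, and 2 members (8.70%) had an unadjusted p under 0.05, against 9.82% of tested peaks. Here 18 of 23 fold changes were negative, with a median of -0.16 (all tested peaks -0.01). The interaction called 0 of 23 by all 3 tools, against 0.0226%, and 1 member (4.35%) had an unadjusted p under 0.05, against 7.32% of tested peaks. Males against females called 0 of 23 with edgeR, the only tool run for sex, against 0.169%. At unadjusted p under 0.05 there were 3 members, against 4.41% of all tested peaks. Of those 3 the smallest p belonged to the Tmem119 start peak, at -0.35 ± 0.15 (SE, edgeR adjusted p = 1). The SE of the member peaks in Q140 against WT had a median of 0.22 (0.14 to 0.38), which sets the size of change these counts could show.

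With counts summed over all peaks of a gene, 0 of the 8 microglial genes with peaks passed with edgeR in Q140 against WT, the only tool run at gene level, where 12.9% of 20851 genes did, and 1 of the 8 (C1qa) had an unadjusted p under 0.05, where 25.3% of genes did. In Q140_Msh3KO against Q140, 0 of 8 passed, where 0.643% of genes did, and 0 had an unadjusted p under 0.05, where 10.6% of genes did. Apart from C1qa, the gene with the smallest p was Aif1, with 9.67, 10.9 and 11.5 CPM in Q140 and 9.74, 12.5 and 14.0 in WT, at -0.19 ± 0.10 (SE, adjusted p = 0.231). Cx3cr1 had the largest positive value in Q140 against WT, 0.29 ± 0.26 (SE, adjusted p = 0.535), and its groups overlapped, with 2.01, 3.48 and 5.43 CPM in Q140 and 2.15, 2.70 and 4.11 in WT.

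Genes that act with the members were counted by list, with no test of a list as a whole. Over all tested peaks, 10.3% were called in Q140 against WT and 6.11% were called lower, beside which the list shares are to be read. Among peaks named for the ligands and partners on the neuron side, 2 of 90 were higher and 9 lower in Q140 than in WT (12.2% called). Of these the smallest adjusted p belonged to Cx3cl1, whose peak 9.84 kb downstream of its start held 21.6 ± 3.57 CPM in Q140, 28.7 ± 2.73 in Q140_Msh3KO, 31.5 ± 4.27 in Msh3KO and 34.8 ± 5.59 in WT, with -0.68 ± 0.12 in Q140 against WT (SE, adjusted p = 7.66e-05). Csf1 had peaks that moved both ways, at 0.92 ± 0.19 for one 28.9 kb downstream of its start (SE, adjusted p = 5.40e-04) and -0.89 ± 0.17 for one 13.6 kb upstream (SE, adjusted p = 3.27e-04). Complement partners of C1q had 0 higher and 6 lower of 119 (5.04%). Cd59a, an inhibitor of the terminal complement complex, had the lowest adjusted p there, with 8.66 ± 1.32 CPM in Q140, 14.9 ± 2.26 in Q140_Msh3KO, 23.1 ± 5.12 in Msh3KO and 23.4 ± 7.09 in WT at a peak 10.9 kb upstream. That peak was lower in Q140 than in WT (-1.42 ± 0.16, SE, adjusted p = 2.38e-07) and higher in Q140_Msh3KO than in Q140 (0.77 ± 0.17, SE, adjusted p = 0.0211). It was still lower in Q140_Msh3KO than in WT (-0.65 ± 0.16, SE, edgeR adjusted p = 0.0462). These comparisons share libraries and are not separate evidence. TREM2 signalling genes had 0 higher and 4 lower of 27 (14.8%), among them a peak of the kinase Syk 7.18 kb downstream of its start at -0.66 ± 0.15 (SE, adjusted p = 0.00207).

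Other microglial genes had 3 higher and 17 lower peaks of 161 in Q140 against WT (12.4%), against 10.3% of all tested peaks. Mertk, a receptor for the engulfment of dying cells, had the smallest adjusted p, with 1.77 ± 0.543 CPM in Q140, 2.80 ± 0.748 in Q140_Msh3KO, 4.85 ± 1.53 in Msh3KO and 5.15 ± 1.70 in WT at a peak 27.9 kb downstream of its start (-1.52 ± 0.23 in Q140 against WT, SE, adjusted p = 1.58e-05). Microglial transcription factor genes had 5 higher and 5 lower of 82 (12.2%), and 6 of the 9 had a peak over the start, though not Spi1, which encodes PU.1. Genes raised in disease-associated microglia had 0 of 23 past the test by edgeR, and genes of perivascular macrophages had 0 higher and 2 lower of 26 (7.69%). Striatal projection neuron genes had 8 higher and 53 lower of 393 (15.5%), and pan-neuronal genes 9 higher and 7 lower of 212 (7.55%). No member lies on chromosome 13 with Msh3, and Tmem119, the 1 member on the chromosome of Htt, lies 78.9 Mb from it.

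The genes whose summed peaks varied most like the summed member peaks over the 24 libraries were N6amt1 (Pearson r 0.789), Gm4425 (0.731), Plekhd1 (0.712), 9030624G23Rik (0.707) and Zfp385c (0.695), followed by Zcchc24 (0.695), Pdzk1 (0.689), Ncf4 (0.688), Uck2 (0.683) and Col5a1 (0.677). They were the highest of 11566 genes, over which the median r was -0.18. The points share library, depth and scaling, so the order is a description. By Spearman's rho, 4 of these 10 stayed among the top 10.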

How the data were processed

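Nuclei from 24 striata were profiled by ATAC-seq, and the authors deposited raw read counts per peak and library in 1 table, whose headers name mm10 and give each peak a distance to the nearest start, a class and a gene name. Per the submitters' processing notes, the tools included MACS2, featureCounts, BWA, Picard and SAMtools, with build GRCm38. Not given in the sources used here are their versions, settings, read filters and any shift of cut sites. All 24 columns were used and 0 others held sample values.

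The deposited counts were scaled by TMM and tested with edgeR 4.0.16 in R 4.3.3. filterByExpr with a minimum of 10 counts kept 146155 peaks. A quasi-likelihood model with genotype and sex was fitted to all 24 libraries, and p-values were adjusted by Benjamini-Hochberg over all tested peaks at 0.05. CPM use TMM library sizes, and log2 fold changes put the first-named group on top, with intervals of 1.96 SE. DESeq2 1.42.0 and limma 3.58.1 were alternatives, and the scripts were tested on simulated counts. Likeness used log2 CPM (prior count 2) of genes with 200 reads or more on average. In all 60 pairs of libraries within a genotype the counts differed beyond sampling noise (chi-square per peak 1.33 to 8.80). For each member the text names the promoter peak, or the peak nearest the start, and every peak past the test. Where a member had none, its peak of smallest p in Q140 against WT may be named, and a few other peaks were chosen after their values were seen. The members and lists were chosen with earlier results of these data known.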

Additional observations from a re-analysis of the deposited data

Results flagged for a closer look

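Single libraries stood apart from the other 5 of their genotype, by a gap test at the 95% level, in 7 of 96 sets of 6 values (23 member peaks and their sum in 4 genotypes), and chance gives about 1 in 20. Q140 F1 was high at 3 peaks. It held 3.07 CPM at the peak 15.8 kb upstream of C1qa (other Q140 libraries 1.65 to 1.94), 6.85 CPM at the peak 1.2 kb upstream of C1qc (5.31 to 5.71) and 4.02 CPM at the peak 11.5 kb downstream of the Tmem119 start (1.39 to 2.36). Q140 M2 held 3.31 CPM at the peak 25.8 kb upstream of Csf1r (0.871 to 1.51). Msh3KO F2, the library of lowest depth, held 6.64 CPM at the Tmem119 start peak (other Msh3KO libraries 2.98 to 4.19). WT M2 was low at the peak 15.8 kb upstream of C1qa, with 1.23 CPM (other WT libraries 1.76 to 1.91), and WT M1 at the C1qb peak, with 0.395 CPM (1.37 to 1.81). None of these 6 peaks passed the test in any comparison (edgeR).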

How the results depend on the processing

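For Q140 against WT, the count of 2 called peaks became 1 without Q140 F2 and Q140_Msh3KO M1 (P2ry12 only) and 0 in females only, and lay between 1 and 3 when each library was left out in turn, 1 without WT F2 or WT M1. It was 3 with scaling by total counts, which added the peak 19.4 kb downstream of P2ry12. The P2ry12 peak 15.2 kb upstream stayed past the test with each of the 24 libraries left out (-0.96 to -0.78, adjusted p 0.00114 to 0.00881) and the C1qa peak with 21 of 24 (-0.78 to -0.60, adjusted p 0.0119 to 0.0750). With 3 animals against 3 the C1qa call was lost at a similar fold change, -0.67 in females (adjusted p 0.429) and -0.72 in males (0.132). The 0 counts of the other genotype comparisons stayed at 0 under the alternatives run. Restricted to peaks within 10 kb of a start, the summed CPM was 39.4 in Q140, 38.6 in Q140_Msh3KO, 41.8 in Msh3KO and 42.0 in WT. The cause of these shifts was not tested, apart from the fewer peaks or animals that the settings use. No direction of a called peak reversed.

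Of 36 pairs of libraries with the same sex and replicate label, 11 deviated together at r over 0.1 (median 0.03). These included all 3 female pairs of Msh3KO and WT (0.141 to 0.459) but 0 of their 3 male pairs, so in no pair of genotypes did all pairs pass and the labels were not taken as pairing. With a replicate block the counts were 2 for Q140 against WT and 0 for the other genotype comparisons, and 3 of 24 libraries correlated best with their own label throughout. Without Q140 F2 and Q140_Msh3KO M1, the other peaks followed through the settings, of Aif1, C1qb, C1qc, Csf1r, Cx3cr1 and Tmem119, stayed short of the threshold in Q140 against WT (-0.38 to 0.58). A median of 20 counts per peak and library limits single-peak results.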

Other observations

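Summed over all peaks of each list, the other microglial genes held 765 to 814 CPM in Q140 (median 794), 800 to 827 in Q140_Msh3KO (817), 788 to 936 in Msh3KO (855) and 828 to 876 in WT (853), so Q140 and WT libraries did not overlap. The complement partners held 423 to 455 CPM in Q140 (median 450), 433 to 485 in Q140_Msh3KO (461), 455 to 496 in Msh3KO (474) and 475 to 507 in WT (491), again with no overlap of Q140 and WT. Both sums were noticed after the values were seen, and the Q140 and WT ranges of every other list overlapped. The median log2 fold change per peak in Q140 against WT was 0.01 for the other microglial genes. It was -0.07 for the complement partners and -0.01 for all tested peaks. The difference of these sums was not tested, and how often sums over other sets of genes separate Q140 from WT was not counted. Of single tested peaks, 5.07% had Q140 and WT libraries that did not overlap. The summed peaks of striatal projection neuron genes held 2730 to 3540 CPM in Q140 and 3170 to 4130 in WT, which overlapped.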
